A study of Homo sapiens with 6 samples.

Results

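Mitochondrial ribosomal protein genes were examined in SW780 bladder cancer cells with and without exposure to RC48. Members were the genes whose symbol began with MRPL or MRPS followed by a number, with pseudogene and hyphenated names left out, and 78 of the 16390 listed genes met this rule. Of these, 49 carried an MRPL name (large subunit) and 29 an MRPS name (small subunit). SW780 is an established bladder cancer cell line that the study treated as luminal in type. RC48 (disitamab vedotin) is an antibody-drug conjugate that binds HER2, the product of ERBB2, and carries the tubulin poison monomethyl auristatin E. Sequencing covered the RNA of unexposed cells (Control, 3 libraries) and of cells given 25 µg/ml RC48 (RC48, 3 libraries). All 6 libraries came from this 1 cell line and carried no other labelled allele or agent. The exposure time before RNA extraction was not given in the sources used here, and nothing stated that libraries of a group came from separate cultures, so the p-values measure only the spread between these libraries.

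Mitochondria keep a small genome that encodes core subunits of the respiratory chain, and a dedicated ribosome translates it. The RNA of this ribosome is encoded in the mitochondrial genome, whereas its proteins are encoded in the nucleus, made in the cytosol and imported. Some of these proteins have a bacterial counterpart and others were added in mitochondria, and the gene names follow the subunit in which a protein was first placed, which later structures changed in a few cases.

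By structure, 51 of the 78 genes encode large-subunit proteins and 26 encode small-subunit proteins. MRPS30 (mL65) and MRPS18A (mL66) carry small-subunit names but sit in the large subunit. MRPS36, listed as KGD4 in RefSeq, is a component of the 2-oxoglutarate dehydrogenase complex and belongs to neither subunit. A bacterial counterpart is known for 46 members, and 31 are specific to mitochondria.

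None of the 78 genes passed the test between RC48 and Control. At an adjusted p under 0.05, the edgeR quasi-likelihood test called 0 members, whereas it called 2.21% of all 13055 tested genes (1.98% higher and 0.23% lower). At an unadjusted p under 0.05, 3 members (3.85%) were found beside 19.1% of all tested genes, and DESeq2 also called 0 members at an adjusted p under 0.05 (5.7% of all tested genes) and 8 at an unadjusted p under 0.05. The share of all tested genes at an unadjusted p was taken only for the edgeR fit with all libraries and no correction. Counts at an unadjusted p from DESeq2 and other settings therefore stand without such a share. Tools that weigh or drop libraries gave calls. The limma fit on log2(TPM + 1), which held only the 5 libraries with a TPM table and so lacked RC48 replicate 2, called 10 members lower (12.8%) beside 20.8% of all tested genes (15.1% lower). The limma voom fit with sample quality weights, in which RC48 replicate 3 had a weight of 7.64 and RC48 replicates 1 and 2 had 0.097 and 0.262, called 42 members (53.8%; 17 higher and 25 lower) beside 61.4% of all tested genes (30.4% higher and 31.0% lower). In the edgeR fit, 37 members lay above 0 and 41 below, with a median log2 fold change of -0.03 beside 0.02 over all tested genes. The single values nonetheless spread from -0.65 for MRPL1 to 0.82 for MRPL55, and the position in this order followed the base composition of the transcript in 2 of the 3 RC48 libraries.

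The libraries held between 16453233 and 17988030 estimated read counts. RC48 replicate 1 stood apart from the rest. Over 11977 genes, the chi-square divided by its degrees of freedom was 135.6 between RC48 replicates 1 and 2 and 62.5 between replicates 1 and 3, against 22.4 between replicates 2 and 3. The Control pairs gave 1.44, 9.51 and 11.6, so that Control replicates 1 and 2 were the closest pair but still differed by more than counting error. Luminal markers were present in every library, with 2497 to 4077 counts for GATA3 or FOXA1 in Control and 1444 to 5070 in RC48, and ERBB2 had a log2 fold change of 0.16 ± 0.16 (SE, adjusted p = 0.519, edgeR). Basal markers were present as well. In counts relative to the library total (CPM), the basal list summed to 349, 339 and 331 in Control and 303, 339 and 326 in RC48. The luminal list summed to 761, 776 and 763 CPM in Control and 867, 696 and 761 in RC48. Of the 6 luminal markers only KRT20 was called (log2 fold change -1.55, adjusted p = 0.0489, and 0.215 to 0.232 without any 1 of the Control libraries), and none of the 3 tested basal markers was (KRT5 0.45 ± 0.24 and KRT6A -0.18 ± 0.29, log2 fold change ± SE). Of 6 leukocyte markers 3 were tested, and in all 3 every RC48 library had more counts than every Control library. Their median log2 fold change was 1.64, with an unadjusted p under 0.05 in each (edgeR). Over all tested genes, 17.4% had every RC48 library above Control and 19.1% had an unadjusted p under 0.05. The 3 markers passed the low-count filter through their RC48 counts, so the filter favoured this direction and their agreement is no separate evidence. ITGAM was called, with 0, 5 and 0 counts in Control and 69, 54 and 65 in RC48 (adjusted p = 0.0074, and 0.0718 without Control replicate 3, edgeR). CD3E had 5, 4 and 7 counts in Control and 23, 11 and 17 in RC48, and CD14 had 6, 8 and 4 in Control and 23, 14 and 12 in RC48 (adjusted p = 0.113 and 0.161, edgeR). The defining leukocyte marker PTPRC had at most 1 count in any library. Of the fibroblast and endothelial markers, 4 were tested and none was called, with the largest values in COL1A1 (0.74 ± 0.19) and VWF (-0.50 ± 0.24; log2 fold change ± SE).

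Sequences of 4 members are given first, because the base composition of the transcript is a property that the values below track. They are stretches of 120 bases from the middle of the coding region (GENCODE release 29), for the 2 members with the lowest log2 fold changes and the 2 with the highest. Capitals mark G and C.
MRPL1, coding bases 430 to 549: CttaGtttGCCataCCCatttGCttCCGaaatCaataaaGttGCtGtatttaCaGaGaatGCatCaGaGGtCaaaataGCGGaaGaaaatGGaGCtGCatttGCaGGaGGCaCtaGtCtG
MRPL19, coding bases 379 to 498: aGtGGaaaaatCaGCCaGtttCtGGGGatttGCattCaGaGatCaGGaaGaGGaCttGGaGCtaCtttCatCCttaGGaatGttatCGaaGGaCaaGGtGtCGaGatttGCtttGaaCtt
MRPL53, coding bases 109 to 228: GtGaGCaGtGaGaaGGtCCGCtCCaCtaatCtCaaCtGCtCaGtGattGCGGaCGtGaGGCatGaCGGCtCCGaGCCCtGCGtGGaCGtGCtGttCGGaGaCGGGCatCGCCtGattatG
MRPL55, coding bases 133 to 252: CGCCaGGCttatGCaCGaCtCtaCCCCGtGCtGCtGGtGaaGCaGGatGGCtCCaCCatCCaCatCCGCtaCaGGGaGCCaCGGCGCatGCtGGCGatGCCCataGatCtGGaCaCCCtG

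In these stretches G and C made up 50 of 120 bases in MRPL1, 51 in MRPL19, 71 in MRPL53 and 75 in MRPL55. Over the whole principal GENCODE transcript, untranslated parts included, the GC content was 39.1% for MRPL1, 38.3% for MRPL19, 52.3% for MRPL53 and 57.1% for MRPL55. Over the coding region alone it was 38.2%, 47.1%, 62.2% and 64.1%. The GENCODE transcript of MRPL53, at 1162 bases, was longer than the RefSeq span of the gene given below, so its GC value depends on the annotation. Across the 78 members it ran from 35.0% to 72.0%, with a median of 49.6%, beside a median of 49.1% over all tested genes. In RefSeq GRCh38.p14, MRPL1 lies at chr4:77862830-77952785, MRPL19 at chr2:75646783-75662206, MRPL53 at chr2:74471982-74472680 and MRPL55 at chr1:228106685-228109299.

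Levels were compared between genes as TPM (transcript abundance scaled to a fixed total per library), which divides the count by the length of the transcripts and by the library's sum. In Control, the mean TPM of the members spanned a 37.8-fold range with a median of 86.5. The median was 107.3 for MRPL genes and 68.9 for MRPS genes. A level of at least 100 TPM was reached by 35 members, and 7 were under 20 TPM.

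MRPL51, a large-subunit protein specific to mitochondria, had the highest level, at 324.8, 319.3 and 278.2 TPM in Control replicates 1 to 3. MRPS24 (uS3m, at the mRNA entry side of the small subunit) followed at 299.5 ± 12.8 TPM (SD, n = 3). These neighbours overlapped in their library ranges, as did 68 of the 77 neighbouring pairs in the order. MRPL33 (bL33m) had 270.1 ± 18.1 TPM, MRPL41 (mL41) 268.3 ± 20.6 and MRPL53 (mL53) 262.4 ± 12.2 (SD, n = 3 each), and the ranges of these 3 genes overlapped in turn.

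At the low end, MRPL42 (mL42) had 7.91, 8.07 and 8.44 TPM and MRPS33 (mS33) had 8.87, 8.20 and 8.23 TPM in Control. Both lay below MRPS23 (mS23) at 17.0 ± 0.37 TPM without overlap, whereas MRPS23, MRPS25 (mS25, 17.2 ± 1.10) and MRPL50 (mL50, 17.9 ± 1.34) overlapped (SD, n = 3 each). The order of TPM was not the order of reads. MRPL42, with the lowest TPM, had 70.8 ± 1.59 CPM (counts relative to the library total, scaled between libraries by TMM) in Control, and MRPL33, among the highest in TPM, had 24.1 ± 1.06 (SD, n = 3 each). TPM depends on the length assigned to a gene. The principal transcript of MRPL42 in GENCODE was 15582 bases long and that of MRPL33 518 bases.

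**Figure D1:**
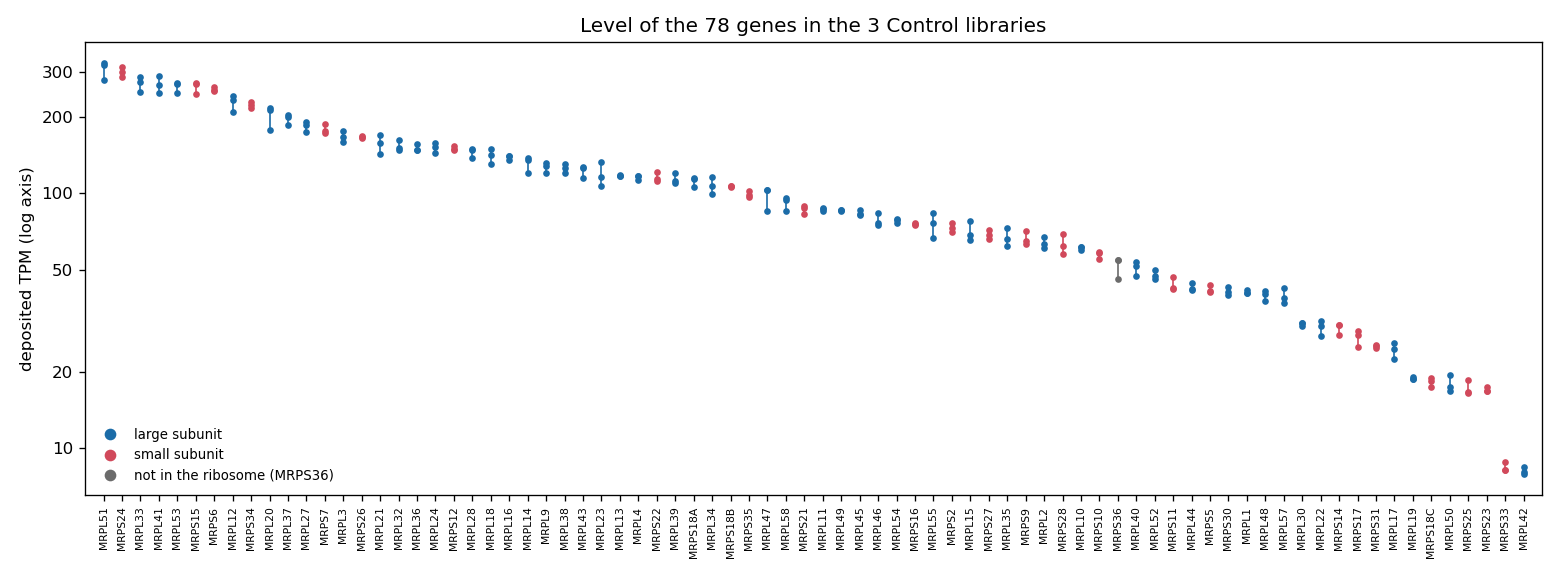
Deposited TPM (log axis) of each of the 78 genes in the 3 Control libraries, sorted by mean, with 1 point per library and a line over their range. MRPL51 stands highest at a mean of 307.4 TPM and MRPL42 lowest at 8.14 TPM, and large-subunit genes (blue) and small-subunit genes (red) occur along the whole order.

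The pool of transcripts as a whole overlapped between the groups. Summed over the 78 members, TMM-scaled CPM was 4279, 4309 and 3754 in Control replicates 1 to 3 and 4165, 3871 and 4151 in RC48 replicates 1 to 3. The MRPL sum was 2282 to 2634 in Control and 2367 to 2514 in RC48, and the MRPS sum was 1472 to 1676 in Control and 1504 to 1701 in RC48. As a share of all counts, the members took 0.435%, 0.438% and 0.387% in Control and 0.385%, 0.392% and 0.415% in RC48. The widest gap within Control, between replicates 2 and 3, was larger than the difference between the groups. Such totals are relative within each library and measure neither the number of cells nor the RNA per cell.

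The subunits and the evolutionary classes gave values close to one another. The median log2 fold change was -0.01 for the 51 large-subunit genes and -0.13 for the 26 small-subunit genes by structure. It was 0.00 for the 46 genes with a bacterial counterpart and -0.07 for the 31 genes specific to mitochondria. In each of these classes 0 genes were called by edgeR, and 1 or 2 were found at an unadjusted p under 0.05.

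**Figure D2:**
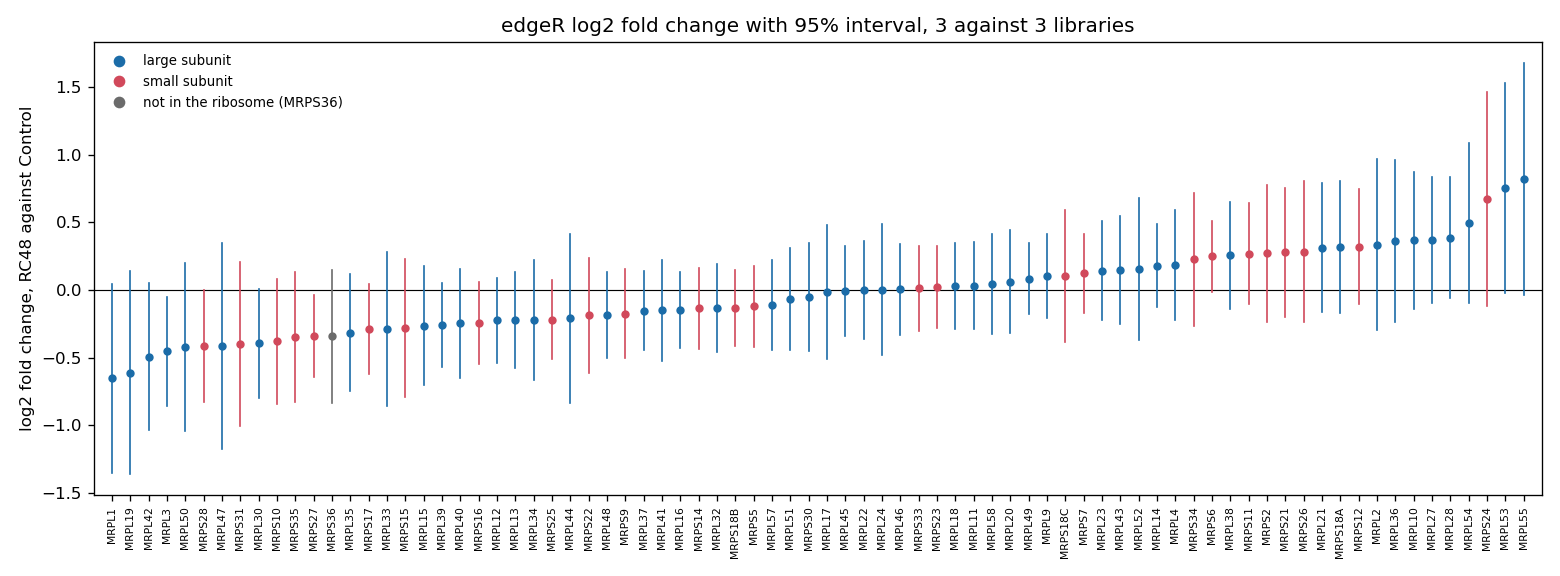
edgeR log2 fold change of RC48 against Control for the 78 genes, with 95% intervals, sorted by value and coloured by subunit. The intervals of MRPL3, MRPS27 and MRPS28 lie below 0, those of the other members include 0, and the values run from -0.65 (MRPL1) to 0.82 (MRPL55).

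The precision limited what could be seen. The standard errors ran from 0.11 to 0.37, and the 95% interval lay within a log2 fold change of -1 to 1 for 68 members and reached past it for 10. The outermost bounds were -1.36 (MRPL19) and 1.68 (MRPL55). The smallest adjusted p was 0.231, for MRPL3 and MRPS27.

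At the low end of the order, MRPL1 (uL1m), which forms the mobile L1 stalk beside the exit site for tRNA, had 21.0, 20.7 and 18.6 CPM in Control and 6.86, 17.4 and 14.1 CPM in RC48 replicates 1 to 3. All RC48 libraries lay below all Control libraries, and replicate 1 lay far below the other two. The log2 fold change was -0.65 ± 0.30 (SE, adjusted p = 0.274, edgeR). Without RC48 replicate 1 it was -0.36 (adjusted p = 0.129), and without RC48 replicate 2 it was -0.94 (adjusted p = 0.0387).

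MRPL19 (bL19m), whose bacterial counterpart lies at the interface of the subunits, had 82.9, 83.0 and 77.0 CPM in Control and 27.3, 77.7 and 54.0 CPM in RC48. RC48 replicate 2 fell inside the Control range. The log2 fold change was -0.61 ± 0.32 (SE, adjusted p = 0.305, edgeR), and without RC48 replicate 1 it was -0.31 (adjusted p = 0.22).

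MRPL42 had 70.9, 72.4 and 69.2 CPM in Control and 33.7, 67.6 and 49.8 CPM in RC48. MRPL3 (uL3m), a protein that reaches towards the peptidyl transferase centre, had 135.7, 130.9 and 130.7 CPM in Control and 73.4, 115.8 and 100.8 CPM in RC48. In both genes every RC48 library lay below every Control library, in the order replicate 2, 3 and 1 from the top. The log2 fold change was -0.49 ± 0.23 for MRPL42 (SE, adjusted p = 0.279) and -0.45 ± 0.17 for MRPL3 (SE, adjusted p = 0.231, edgeR).

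The next lowest values belonged to MRPL50 (mL50, -0.42 ± 0.27), MRPS28 (bS1m, -0.42 ± 0.18), MRPL47 (uL29m, near the exit of the peptide tunnel, -0.41 ± 0.33) and MRPS31 (mS31, -0.40 ± 0.26; log2 fold change ± SE). MRPS28 was lower in every RC48 library, at 11.5, 15.8 and 14.9 CPM against 19.0, 21.4 and 16.1 in Control. MRPL47 had 21.7, 57.4 and 49.7 CPM in RC48 against 62.2, 62.5 and 46.8 in Control, so its groups overlapped and RC48 replicate 1 alone was low.

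At the high end, MRPL55 (bL31m) had 17.6, 16.8 and 13.1 CPM in Control and 46.4, 16.2 and 21.5 CPM in RC48. RC48 replicate 1 was far above every other library, replicate 3 was above the Control range and replicate 2 was inside it. The log2 fold change was 0.82 ± 0.37 (SE, adjusted p = 0.27, edgeR), and without RC48 replicate 1 it was 0.24 (adjusted p = 0.397).

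MRPL53 had 28.6, 29.7 and 23.8 CPM in Control and 73.7, 28.4 and 36.4 CPM in RC48, and MRPS24 had 63.8, 62.5 and 53.1 CPM in Control and 153.7, 55.5 and 76.9 CPM in RC48. The pattern was that of MRPL55, with replicate 1 high, replicate 3 above the Control range and replicate 2 within it. The log2 fold change was 0.75 ± 0.33 for MRPL53 (SE, adjusted p = 0.265) and 0.67 ± 0.34 for MRPS24 (SE, adjusted p = 0.294, edgeR), and without RC48 replicate 1 they were 0.24 and 0.14. Exons of MRPS24 are shared with a read-through transcript, URGCP-MRPS24, which received 10.6 to 17.1 estimated counts per library.

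The other 5 of the 8 highest were MRPL54 (mL54, 0.49 ± 0.26), MRPL28 (bL28m, 0.39 ± 0.19), MRPL27 (bL27m, whose bacterial counterpart reaches into the peptidyl transferase centre, 0.37 ± 0.20), MRPL10 (uL10m, the base of the stalk that recruits translation factors, 0.37 ± 0.22) and MRPL36 (bL36m, 0.36 ± 0.26; log2 fold change ± SE). In all 5 genes RC48 replicate 1 was the highest of the 6 libraries. MRPL28, for example, had 106.2, 105.6 and 89.3 CPM in Control and 169.3, 103.9 and 120.4 CPM in RC48.

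**Figure D3:**
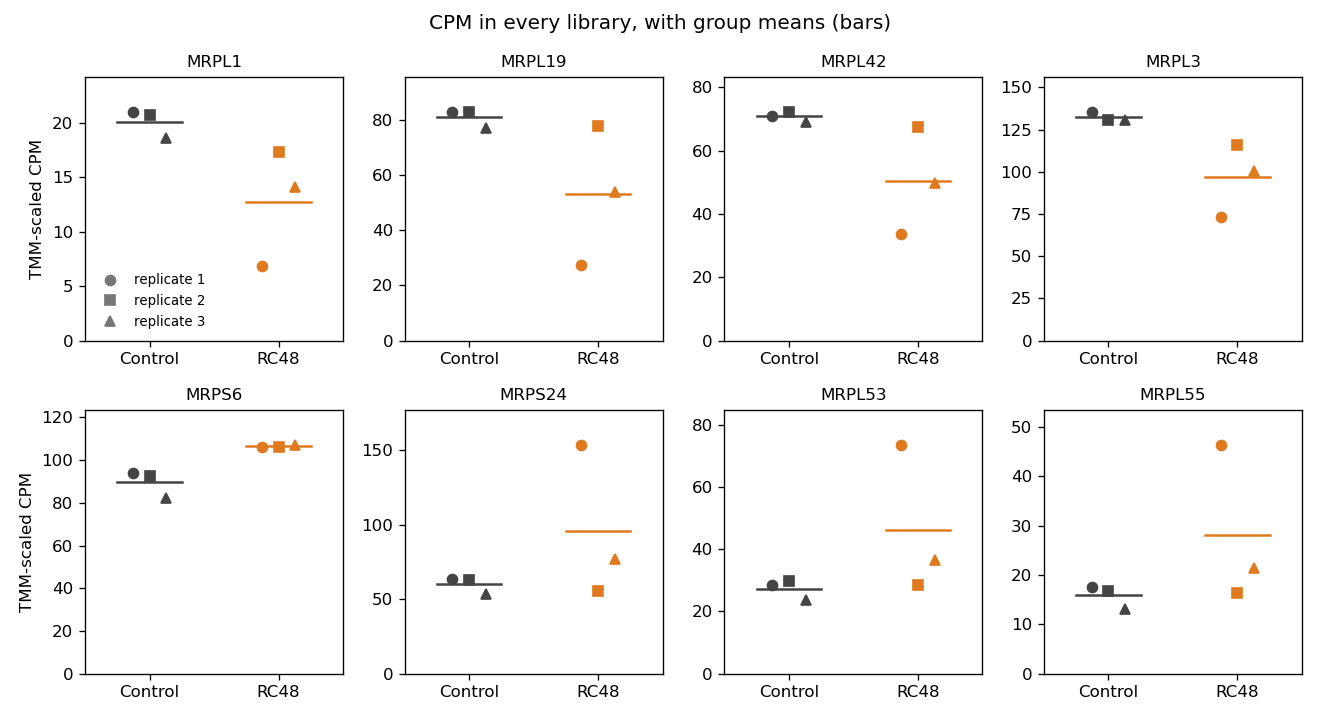
TMM-scaled CPM of 8 members in the 3 Control (grey) and 3 RC48 (orange) libraries, with symbols for the replicate number and bars for the group means. In MRPL1, MRPL19, MRPL42 and MRPL3 RC48 replicate 1 is the lowest library, in MRPS24, MRPL53 and MRPL55 it is the highest, and in MRPS6 the 3 RC48 libraries lie together above Control.

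The members apart from these extremes included genes with roles of their own. MRPL12 (bL12m), a stalk protein that also binds the mitochondrial RNA polymerase, had 94.0, 98.8 and 77.3 CPM in Control and 74.8, 74.3 and 82.0 CPM in RC48. The groups overlapped only through Control replicate 3 and RC48 replicate 3, and the log2 fold change was -0.22 ± 0.14 (SE, adjusted p = 0.334, edgeR). MRPL12 is also rich in G and C (64.6%), and after correction of each library for transcript GC content every RC48 library lay below every Control library (log2 fold change -0.51, adjusted p = 0.112).

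MRPS30 had 31.2, 32.3 and 30.5 CPM in Control and 23.1, 34.5 and 33.1 CPM in RC48, with replicate 1 below the Control range and the other two above it. The 3 MRPS18 paralogs occupy separate places in the ribosome, with MRPS18A in the large subunit and MRPS18B (mS40) and MRPS18C (bS18m) in the small subunit. Their log2 fold changes were 0.32 ± 0.21, -0.13 ± 0.12 and 0.10 ± 0.21 (SE), and the groups overlapped in all 3. MRPS18C had the lowest counts among them, at 10.7, 11.9 and 10.5 CPM in Control and 14.3, 8.45 and 12.8 CPM in RC48, and 63.5% of its exon bases overlap exons of ABRAXAS1 on the opposite strand.

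Of the genes at either end of the TPM order, MRPL51 (log2 fold change -0.07 ± 0.16), MRPL41 (-0.15 ± 0.16), MRPL33 (-0.29 ± 0.25), MRPS25 (-0.22 ± 0.13), MRPS33 (0.01 ± 0.13) and MRPS23 (0.02 ± 0.13) all had adjusted p values above 0.3 (SE, edgeR). MRPS25 was lower in every RC48 library, at 39.4, 32.6 and 35.5 CPM against 41.3, 41.6 and 42.2 in Control. Among these MRPS33 differed least, with 18.1, 18.8 and 20.2 CPM in RC48 against 20.5, 18.9 and 17.3 in Control.

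Members whose groups did not overlap were then counted. In 10 members (MRPL1, MRPL3, MRPL30, MRPL35, MRPL42, MRPS16, MRPS17, MRPS25, MRPS27 and MRPS28) every RC48 library lay below every Control library, beside 14.1% of all tested genes. In 1 member all RC48 values exceeded all Control values, beside 17.4% of all tested genes. That gene was MRPS6 (bS6m), with 94.0, 92.5 and 82.3 CPM in Control and 106.1, 106.3 and 107.3 CPM in RC48. MRPS6 and, of the 10, MRPL30, MRPL35, MRPS16, MRPS17 and MRPS27 were chosen for mention after their values were seen.

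In MRPS6 the 3 RC48 libraries lay close together (SD 0.675 CPM), whereas in each of the 8 members with the highest log2 fold changes RC48 replicate 1 stood above the rest. The log2 fold change was 0.25 ± 0.11 (SE, adjusted p = 0.27, edgeR), 0.25 without RC48 replicate 1 and 0.22 after the GC correction. On the TPM scale the groups overlapped. MRPS6 had 261.1, 254.7 and 251.4 TPM in Control and 236.9 and 281.5 TPM in RC48 replicates 1 and 3. The limma fit on log2(TPM + 1) gave a log2 fold change of 0.01 (adjusted p = 0.943). The exact two-sided permutation test over libraries gave p = 0.1, which is the smallest value that 3 against 3 libraries allow. Groups that do not overlap always give this value, so it adds nothing for a gene chosen on that ground. MRPS6 lies at chr21:34073578-34143030 and shares 176 of its 990 exon bases with SLC5A3, a myo-inositol transporter gene on the same strand, which had 1963 to 2596 counts in Control and 1441 to 2990 in RC48.

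Across members, the distance from Control differed greatly between the RC48 libraries. The SD of the members' log2 ratios to the Control mean was 0.69 in RC48 replicate 1, 0.13 in replicate 2 and 0.23 in replicate 3, beside 0.79, 0.40 and 0.47 over all tested genes. The median ratio was -0.18, -0.10 and 0.05 in RC48 replicates 1 to 3, and it was 0.06, 0.07 and -0.13 in the Control replicates. The number of members above the Control mean was 33, 19 and 42 of 78 in the 3 RC48 libraries, beside 6699, 6835 and 6565 of all 13055 tested genes.

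RC48 replicates 1 and 3 ordered the members alike. The Spearman correlation of their ratios over the 78 genes was 0.84 and 65 genes had the same sign, against -0.05 and 42 for replicates 1 and 2 and 0.29 and 45 for replicates 2 and 3. After correction of each library for transcript GC content these values were 0.59 and 55, -0.04 and 49, and 0.42 and 50 in the same order. These are descriptions across genes that share the Control libraries as reference. In all 3 RC48 libraries 29 members lay below the Control mean and 8 above it. The same counts were not taken over all tested genes, so they do not set the members apart from the rest.

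The ratio rose with transcript GC content in replicates 1 and 3. The Spearman correlation between GC content and log2 ratio over the 78 members was 0.68 in RC48 replicate 1, -0.07 in replicate 2 and 0.62 in replicate 3, beside 0.75, -0.02 and 0.59 over 13018 tested genes with a GC value. In the Control libraries it was 0.21, 0.15 and -0.30 over the members, beside 0.14, 0.22 and -0.24 over all of these genes. The difference between the members and all genes was not tested. For transcript length, the Spearman correlation over the members was -0.31, 0.04 and -0.38 in RC48 replicates 1 to 3. In the Control replicates it was -0.34, -0.26 and 0.47. Over all of these genes it was -0.25, 0.03 and -0.24 in RC48 and -0.37, -0.48 and 0.56 in Control. After a correction of each library for length, the median log2 fold change of the members was -0.16, beside 0.02 over all tested genes (edgeR).

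**Figure D4:**
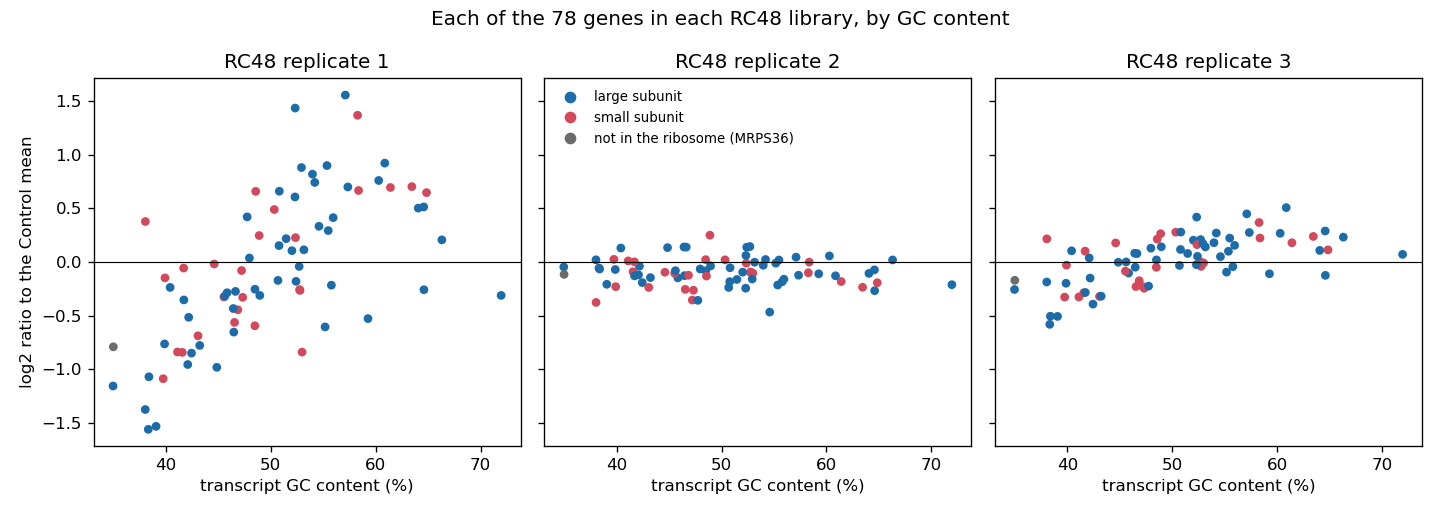
Log2 ratio of each of the 78 genes to its Control mean against the GC content of its transcript (%), in the 3 RC48 libraries, coloured by subunit. The ratio climbs with GC content in replicates 1 and 3 (Spearman 0.68 and 0.62) and stays near 0 at all GC contents in replicate 2 (-0.07).

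Divided by GC content, the 26 members with the lowest values (35.0% to 46.4%) had a median log2 fold change of -0.30, with 22 below 0. The middle 26 had a median of 0.00 with 13 below 0, and the 26 with the highest GC content (52.9% to 72.0%) had 0.24 with 6 below 0. In RC48 replicate 1 the medians of the 3 classes were -0.77, -0.06 and 0.58, in replicate 2 -0.09, -0.10 and -0.11, and in replicate 3 -0.18, 0.06 and 0.18. After the GC correction the median log2 fold change was -0.08 in each class. The median transcript length of the classes was 1692, 1434 and 1094.5 bases from the lowest GC content to the highest, so the classes differed in length as well. The part of GC content or length in the single results was not tested.

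After that correction edgeR still called 0 members, beside 7.56% of all tested genes, with 9 at an unadjusted p under 0.05 and a median of -0.08 over the 78. Groups then did not overlap in 11 members on the lower side (MRPL1, MRPL3, MRPL4, MRPL12, MRPL16, MRPL30, MRPL37, MRPS16, MRPS17, MRPS18B and MRPS27) beside 16.9% of all tested genes, and in MRPS6 on the higher side beside 16.5%. With RC48 replicate 1 also left out, MRPL12 (log2 fold change -0.33, adjusted p = 0.0331) and MRPS25 (-0.28, adjusted p = 0.0413) were called lower, beside 12.9% of all tested genes (5.89% lower). MRPL12 shares 68.2% of its exon bases with AC139530.2 on the same strand. MRPS25 shares 18.4% with NR2C2 on the opposite strand, and its estimated counts were not whole in all 6 libraries.

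The number of calls depended on RC48 replicate 2. Without it, 11 members (14.1%) were called beside 28.3% of all tested genes (14.1% higher and 14.1% lower), of which MRPL28, MRPL53, MRPL54, MRPL55 and MRPS24 rose and MRPL1, MRPL19, MRPL3, MRPL30, MRPL42 and MRPS35 fell. The GC content of the 5 that rose lay between 52.3% and 60.9%. Without RC48 replicate 1, edgeR called 0 members (8 at an unadjusted p under 0.05) beside 6.82% of all tested genes. Without RC48 replicate 3 it also called 0 members (1 at an unadjusted p under 0.05), beside only 93 of all 13172 tested genes.

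The other genes of mitochondrial translation, with the cytosolic and respiratory genes, held 1 call by edgeR, 2 by DESeq2, 21 by limma on log2(TPM + 1) and 123 by voom with quality weights. In the same order, the share called over all tested genes was 2.21%, 5.7%, 20.8% and 61.4%. In the order below, the lists held 5, 15, 26, 20, 12, 8 (regulators, with PPARGC1B), 81 and 82 tested genes. All 5 mitoribosomal proteins with names outside the MRPL and MRPS series were tested, with a median log2 fold change of -0.07 and 0 called, and the largest differences were those of CHCHD1 (-0.21 ± 0.22) and PTCD3 (-0.18 ± 0.12; SE). Among 15 tested mitochondrial translation factors the median was -0.22 and 0 were called by edgeR (2 at an unadjusted p under 0.05). Their median transcript GC content was 44.2%, and after the GC correction their median log2 fold change was -0.04. LRPPRC, which stabilises mitochondrial mRNA, had 147.8, 149.1 and 151.4 CPM in Control and 83.0, 126.4 and 114.0 CPM in RC48, and GFM1, the elongation factor that moves the ribosome along the mRNA, had 78.0, 80.0 and 85.9 CPM in Control and 51.0, 69.8 and 61.1 CPM in RC48. Both lay below Control in all 3 RC48 libraries (log2 fold change -0.47 ± 0.17 and -0.42 ± 0.15, SE, adjusted p = 0.207 and 0.203, edgeR).

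The 26 assembly and rRNA modification factors had a median of 0.08 and the 20 mitochondrial aminoacyl-tRNA synthetases one of 0.03, with 0 called in both (1 and 2 at an unadjusted p under 0.05, edgeR). Values in these lists included those of GTPBP10 (-0.44 ± 0.24) and MPV17L2 (0.44 ± 0.21), both factors of ribosome assembly, and of PARS2, the synthetase for proline (0.31 ± 0.17; log2 fold change ± SE). The 12 tested genes of mitochondrial transcription and RNA processing had a median of -0.28 and 0 called (1 at an unadjusted p under 0.05, edgeR). Their median transcript GC content was 42.1%. The median log2 fold change was -0.03 after the GC correction, and -0.06 without RC48 replicate 1 and without that correction. TFAM, which packages mitochondrial DNA and starts its transcription, had 73.1, 73.2 and 71.5 CPM in Control and 20.4, 66.7 and 40.4 CPM in RC48. All RC48 libraries of TFAM were below Control (log2 fold change -0.77 ± 0.36, SE, adjusted p = 0.276, edgeR), its GC content was 38.4%, and the replicates kept the order seen in MRPL42 and MRPL3. MTPAP, the mitochondrial poly(A) polymerase, was second in this list (log2 fold change -0.61 ± 0.26, SE, adjusted p = 0.253, edgeR).

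PPARGC1B was the gene of these lists that edgeR called. PPARGC1B, a coactivator of nuclear genes for mitochondrial proteins, had 20.7, 19.7 and 25.3 CPM in Control and 10.99, 13.8 and 11.1 CPM in RC48. The groups did not overlap, and the 3 RC48 libraries, replicate 2 included, lay close together (log2 fold change -0.87 ± 0.17, SE, adjusted p = 0.0438, edgeR). After the GC correction it was -0.95 (adjusted p = 0.00873). The call was kept without RC48 replicate 1 (adjusted p = 0.00491) or 2 (0.0135) and lost without RC48 replicate 3 (0.241) or Control replicate 1 (0.2), 2 (0.166) or 3 (0.228), where the log2 fold change lay between -0.94 and -0.76. Its relative PPARGC1A was under the count filter.

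Among the 81 subunits of the respiratory chain and ATP synthase encoded in the nucleus, which assemble with the products of the mitochondrial ribosome, the median was 0.17 and 0 were called (1 at an unadjusted p under 0.05, edgeR). The largest values were 0.92 ± 0.58 for ATP5ME, of ATP synthase, and -0.76 ± 0.46 for NDUFA5, of complex I (log2 fold change ± SE). The 82 tested cytosolic ribosomal proteins had a median of 0.14 and 0 called (1 at an unadjusted p under 0.05, edgeR), with the largest values in RPS29 (1.10 ± 0.58) and RPS21 (0.96 ± 0.51; log2 fold change ± SE). The mitochondrial members, with a median of -0.03, had a transcript GC content (median 49.6%) near that of the cytosolic (48.8%) and respiratory (48.2%) genes. Their median transcript length was 1458.5 bases, beside 1010.5 for the cytosolic and 1078 for the respiratory genes. After the GC correction the 3 median log2 fold changes were -0.08, 0.06 and 0.11. Without RC48 replicate 1, and without that correction, they were -0.05, 0.00 and -0.01. The part of GC content or length in these differences was not tested.

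**Figure D5:**
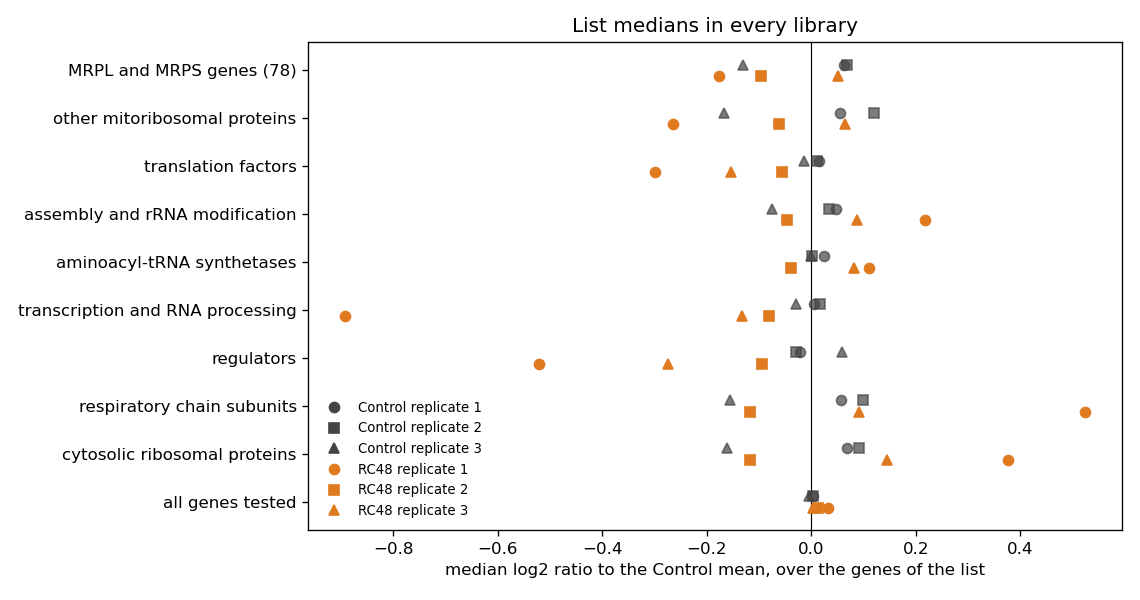
Median log2 ratio to the Control mean over the genes of each list, in the 3 Control (grey) and 3 RC48 (orange) libraries. RC48 replicate 1 lies farthest from 0 in most lists, at -0.18 for the MRPL and MRPS genes, 0.38 for the cytosolic ribosomal proteins and 0.52 for the respiratory chain subunits, while replicate 2 stays between -0.12 and 0.01.

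Finally, the promoters of the members were read for short motifs, on both strands, in the 250 bases before and 50 after the start of each gene (RefSeq, GRCh38.p14). The table matched 70 of the 78 members. The ETS-type motif CCGGAAG occurred in 29 of them (41.4%), beside 10.7% of 27305 promoters. The YY1-type motif AAGATGGCG occurred in 13 (18.6%) beside 1.85%, the NRF1-type motif CGCATGCG in 3 (4.29%) beside 2.19%, and the E-box CACGTG in 7 (10%) beside 7.43%. The ETS-type motif ends in the letters with which the YY1-type motif begins, so 1 stretch can hold both, and 4 members held both. Base composition was not matched between the members' promoters and the rest.

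The ETS-type motif occurred at both ends of the order of changes. The 150 bases before the start are given for MRPL3 and MRPL53, which had log2 fold changes of -0.45 and 0.75, with the motif in capitals.
MRPL3, chr3:131502972-131503121, minus strand: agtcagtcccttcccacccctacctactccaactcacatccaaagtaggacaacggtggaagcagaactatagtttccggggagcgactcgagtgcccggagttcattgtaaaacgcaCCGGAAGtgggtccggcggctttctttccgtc
MRPL53, chr2:74472681-74472830, minus strand: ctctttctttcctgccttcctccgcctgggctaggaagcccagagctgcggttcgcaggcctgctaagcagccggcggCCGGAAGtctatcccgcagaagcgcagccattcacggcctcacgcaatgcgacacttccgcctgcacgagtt

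The motif began 32 bases before the start in MRPL3 and 72 bases before it in MRPL53. The median log2 fold change was 0.04 for the 29 members with CCGGAAG and -0.12 for the 41 without, and it was 0.00 for the 13 with AAGATGGCG and -0.07 for the 57 without. These differences were not tested, and the promoter sequence was not part of the RNA measurement.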

How the data were processed

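RNA of SW780 cells was sequenced at BGI in 6 libraries. Per the study's methods, the authors filtered reads with SOAPnuke, mapped them with Bowtie2 to a reference gene sequence and counted them with RSEM; the submitters' processing notes also name hg38 and limma, and versions and annotation are not given in the sources used here. The deposited values were estimated counts per gene (6 libraries) and TPM by the authors (5 libraries; a TPM table of RC48 replicate 2 was not analysed here). Library preparation followed BGI protocols whose strand setting is not given in the sources used here.

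Estimated counts were rounded to whole numbers. Genes were filtered with filterByExpr, scaled with TMM and tested with the edgeR 4.0.16 quasi-likelihood test (limma 3.58.1, DESeq2 1.42.0, R 4.3.3), with Benjamini-Hochberg adjustment over all 13055 tested genes and a threshold of 0.05. All 78 members passed the filter. CPM is TMM-scaled, and a log2 ratio sets 1 library against the Control mean. Of the members, 9 had an estimated count that was not whole in at least 1 library, which marks reads shared with other genes, and exons of 25 members overlap another protein-coding gene (8 on the same strand, 17 on the opposite strand). Transcript GC content and length came from the principal GENCODE release 29 transcript (99.6% of listed genes), positions and promoters from RefSeq GRCh38.p14. The GC correction was a loess fit (span 0.3) per library, used as an offset. Single members were also compared by an exact two-sided permutation test over libraries. On simulated counts for this comparison, with 200 genes changed among 12892 tested, edgeR recovered 96% of 2-fold and 100% of 4-fold changes, and with a GC trend added (12830 tested) 61% and 100%. All genes and libraries were simulated with the same dispersion, so apart from that trend the wide spread between the RC48 libraries was absent. These shares therefore do not give the power of the test on the measured counts.

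Members, lists and tests were chosen with earlier results of these data known. Members named are the 8 highest and 8 lowest log2 fold changes, the 5 highest and 5 lowest Control TPM, the MRPS18 paralogs, MRPL12 and MRPS30, and of each other list the called genes or else the 2 largest changes; 1 gene that this rule names is not reported here. Intervals cover the spread between libraries. Alternatives covered the tool, pseudocount, scaling, low-count filter, GC and length correction, replicate block, leaving out each library and, for calls, a floor of 0.5 on the absolute log2 fold change.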

Additional observations from a re-analysis of the deposited data

How the results depend on the processing

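Calls among the 78 members were 0 by edgeR in the fit as reported and under DESeq2, both other scalings, both other filters, the length correction, the GC correction and the replicate block. The members called were 10 by limma on log2(TPM + 1), 1 (MRPL42) with a pseudocount of 0.1, 42 by voom with quality weights, 2 with the GC correction and without RC48 replicate 1 (a setting chosen after seeing the data), and 0 to 11 with 1 library left out, where 11 came without RC48 replicate 2. The TPM scale moved the median of all genes by -0.09 (pseudocount 1) and -0.11 (pseudocount 0.1) on the log2 scale, and relative to it the members' median was -0.16 and -0.15. In the same order of settings, the other lists held 1 call in the fit as reported, 2 by DESeq2, 21, 5, 123 and 9, with 6 under the GC correction, 2 under the length correction and 0 to 51 with 1 library left out. Over all genes, 288 calls became 744 by DESeq2, 2711, 1311, 8018 and 1693, 987 under the GC correction and 68 to 3726 with 1 library left out (without RC48 replicates 3 and 1, 93 and 897, and without Control replicates 1 and 2, 71 and 78).

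Deviations of same-numbered libraries correlated at 0.002, -0.13 and 0.005, and those of differently numbered libraries at -0.11 to 0.13. The deviations also hold the wide spread between the RC48 libraries, so these values do not settle whether the samples were paired. With the replicate block the members called stayed at 0 and all genes called were 331, and with the block and the GC correction they were 0 and 725, with 3 calls in the other lists.

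Of 513 log2 fold changes of 27 named members under 19 alternatives, 449 kept direction and side of the threshold, 36 passed it and 28 changed sign. The sign changes were those of 11 members. With the GC correction and without RC48 replicate 1 the values were -0.00874 for MRPL10, 0.0615 for MRPL33, -0.0659 for MRPL36, 0.0662 for MRPL47, 0.0401 for MRPL50, 0.0141 for MRPL51, -0.0254 for MRPS18A and 0.124 for MRPS30. With the GC correction MRPL50 was 0.0331 and MRPS30 0.0115, and with the block added they were 0.0373 and 0.000646. Voom gave 0.0404 for MRPL51 and 0.0659 for MRPS30. Limma on TPM gave -0.0320 and -0.0341 for MRPS23 and -0.0866 and -0.0964 for MRPS33 (pseudocounts 1 and 0.1). Library sizes alone gave -0.0381 for MRPS23 and -0.0470 for MRPS33, and without a filter MRPS33 was -0.00069. With 1 library left out, MRPL51 ranged from -0.200 to 0.0383, MRPS18C from -0.0597 to 0.295, MRPS23 from -0.0837 to 0.0782, MRPS30 from -0.156 to 0.103 and MRPS33 from -0.0551 to 0.0717. The cause was not tested. Members had 113 to 2787 counts per library, and the intervals also hold the spread between the RC48 libraries.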
